A study of Mus musculus with 6 samples.

Results

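Fatty acid oxidation breaks fatty acids down to acetyl-CoA in mitochondria and, for very long and branched chains, in peroxisomes. The gene set holds the carnitine shuttle, the enzymes of both beta-oxidation spirals with their electron carriers, the acyl-CoA synthetases that activate fatty acids, and the receptors of the peroxisome proliferator-activated receptor (PPAR) family that are known to regulate many of these genes. Members were taken by gene symbol from a list of 33, of which 32 were matched to Ensembl identifiers in the table of 19973 genes. All 32 passed the filter on low values, and Ppara was not analysed here.

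The libraries come from adherent peritoneal macrophages of male C57BL/6 mice, an inbred laboratory strain, aged 18 months (old, 3 libraries) or 2 months (young, 3 libraries). All mice had received 200 µg of ZymA into the peritoneal cavity, cells were taken by lavage at 72 hours and cultured overnight in medium with L-cell supernatant, and both groups were then kept with vehicle (phosphate-buffered saline) for 6 hours. Every library thus reflects cells after an inflammatory stimulus and in culture, and no group without ZymA is used here. The labels name 3 mice per group and triplicate sequencing of each mouse. Whether a library is a mouse or a repeat run is not stated, and p-values therefore rest on a spread between libraries that may be technical.

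Recovered read totals, rounded, lay between 8160000 and 13010000 per library. Of the 10 macrophage markers, all were tested and 8 were higher in old. The summed B cell markers were 2199 to 3922 normalized counts in old against 735 to 781 in young libraries, with 9 of 10 markers higher, and the summed mast cell markers 578 to 648 against 54.3 to 79.4, with 5 of 6 tested markers higher. For other cells, neutrophil sums were 511 to 655 against 186 to 238 (S100a8, the 1 marker tested, was higher), T and NK cell sums 63.5 to 105 against 7.61 to 13.1 (Lck, likewise), and dendritic cell sums 47 to 78.9 against 23.7 to 27.2 (2 of 2 tested were higher). Some tested markers, such as Lck (mean 3.3 in young) and Cd79a (0.909), reached the mean of 10 needed for testing only through the old libraries. Eosinophil sums were 144 to 190 against 127 to 148, and those of mesothelial cells and fibroblasts 685 to 771 against 662 to 804. The adipocyte markers, of interest because fat cells oxidise and store lipid, summed to 0 to 0.855 in old and 0 to 0.845 in young libraries, with 1 of 7 listed (Plin1) in the table. Fewer cells of a type and less RNA per cell cannot be told apart in such bulk samples, and the part of these other cells in the values below was not tested. Old replicate 3 and young replicate 3 stood apart from their groups on the second principal component, which held 18.2% of the variance. On the first, which held 71.5%, each lay nearer to the other age than the rest of its group. Old replicate 3 was at -26.2 there, against -46.2 and -46.1, and young replicate 3 at 30.7, against 45.1 and 42.7. Counts are therefore given with and without them. Fits without both rest on 2 libraries per age and leave out the library of each age nearest to the other age.

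Long-chain fatty acids are first joined to coenzyme A by acyl-CoA synthetases. Carnitine palmitoyltransferases and a carrier then bring them across the mitochondrial membranes as carnitine esters, a step that malonyl-CoA, the building block of fatty acid synthesis, inhibits. In the matrix each turn of the spiral runs through an acyl-CoA dehydrogenase, a hydratase, a hydroxyacyl-CoA dehydrogenase and a thiolase, and electrons pass through the electron transfer flavoprotein to the respiratory chain. In macrophages this route is best known from studies of alternative activation and of lipid-laden cells.

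The log2 difference, old minus young, was positive in 25 of the 32 members and negative in 7. Of all genes tested, it was positive in 5902 and not positive in 5893. The test was not passed by 22 of the 32 members. Only members that passed are called higher or lower in old. The 7 members that were higher in old were the thioesterase gene Acot7 (2.17-fold), the mitochondrial thiolase Acaa2 (1.68-fold), the medium-chain dehydrogenase Acadm (1.51-fold), the peroxisomal thiolase Acaa1a (1.43-fold), the peroxisomal fatty acid importer Abcd3 (1.33-fold), the peroxisomal oxidase Acox3 (1.24-fold) and the carnitine shuttle enzyme Cpt1a (1.21-fold). The 3 that were lower in old were the receptor gene Ppard, 1.76-fold higher in young, the flavoprotein subunit gene Etfa, 1.26-fold, and the short-chain hydratase gene Echs1, 1.20-fold. Together 10 of 32 members passed (31.2%), against 35.5% of all 11795 genes tested (limma on log2 of normalized count + 1, adjusted p under 0.05). By direction the members' shares were 21.9% higher and 9.38% lower, against 17.9% and 17.6% of all genes. The median log2 difference of the members was 0.15, against 0.00 for all genes, and the median size without sign was 0.22 against 0.27. Among the members, Acot7 alone exceeded 1 on the log2 scale in either direction (3.12%, against 10.6% of all genes). Old and young libraries did not overlap in 17 of 32 members, against 47.5% of all genes. In 13 of these the old libraries were above the young ones, against 24.0% of all genes, and in 4 below, against 23.6%.

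**Figure D1:**
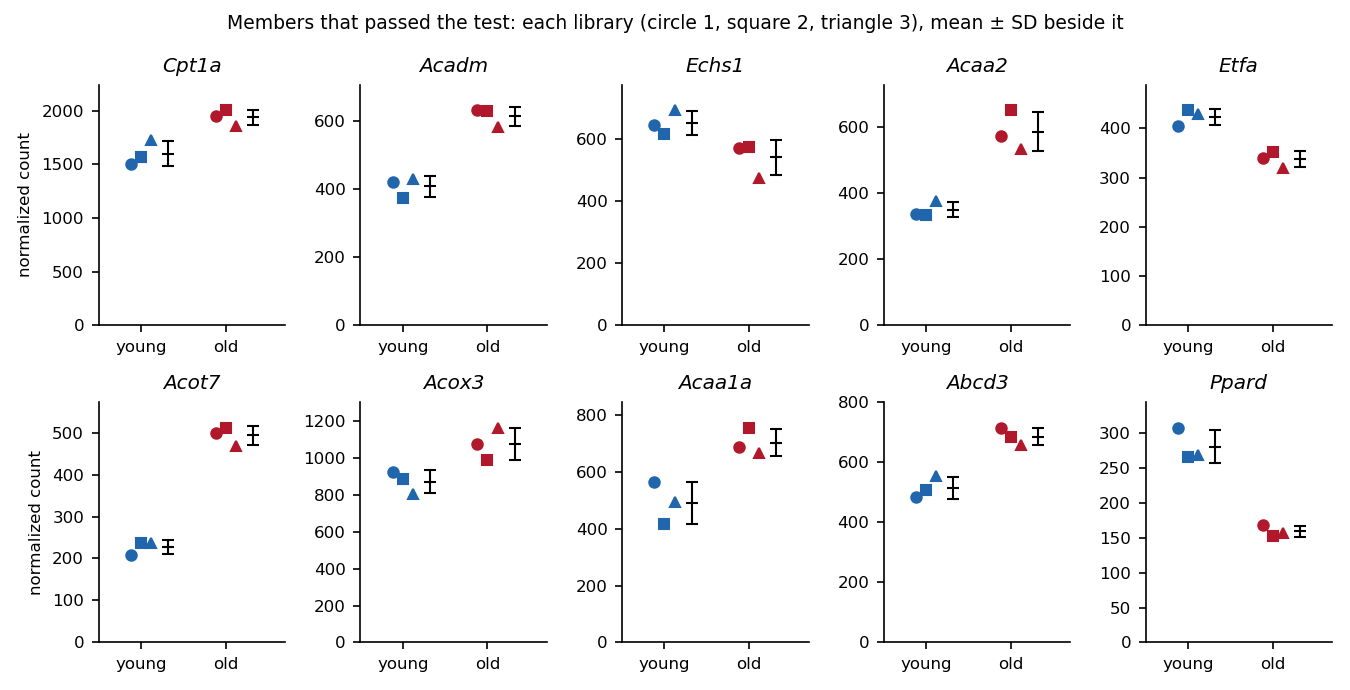
Normalized counts (vertical axis, from 0) of the 10 members that passed the test, in young (blue) and old (red) libraries, with the mean ± SD of 3 libraries beside the points. Acot7 sits at 469 to 512 in old and 208 to 238 in young, and Ppard at 153 to 168 in old and 266 to 308 in young; in none of the 10 panels do the groups overlap.

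The count depended on the libraries numbered 3. Without both, 24 of 32 members passed, against 59.0% of all genes in the same fit. Of these 22 were higher and 2 lower, against 30.3% and 28.7% of all genes. Without old replicate 3 alone, 16 were higher and 2 lower, against 23.6% and 24.6% of all genes. Old replicate 3 was the lowest of the old libraries in 27 of 32 members (84.4%, against 48% of all genes), and young replicate 3 the highest of the young ones in 22 of 32, against 45.8% of all genes. Centring each library on its median gave 14 members higher and 2 lower, against 7 and 3 without centring. The same centring called 23.1% of all genes higher and 15.2% lower, 38.3% in all. Leaving out young replicate 2 gave 5 members higher and 1, Ppard, lower, against 12.4% and 12.6% of all genes (25.0% in all). Acadm, Acaa2, Acot7, Acaa1a, Abcd3 and Ppard passed under each of the 18 alternatives run.

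**Figure D2:**
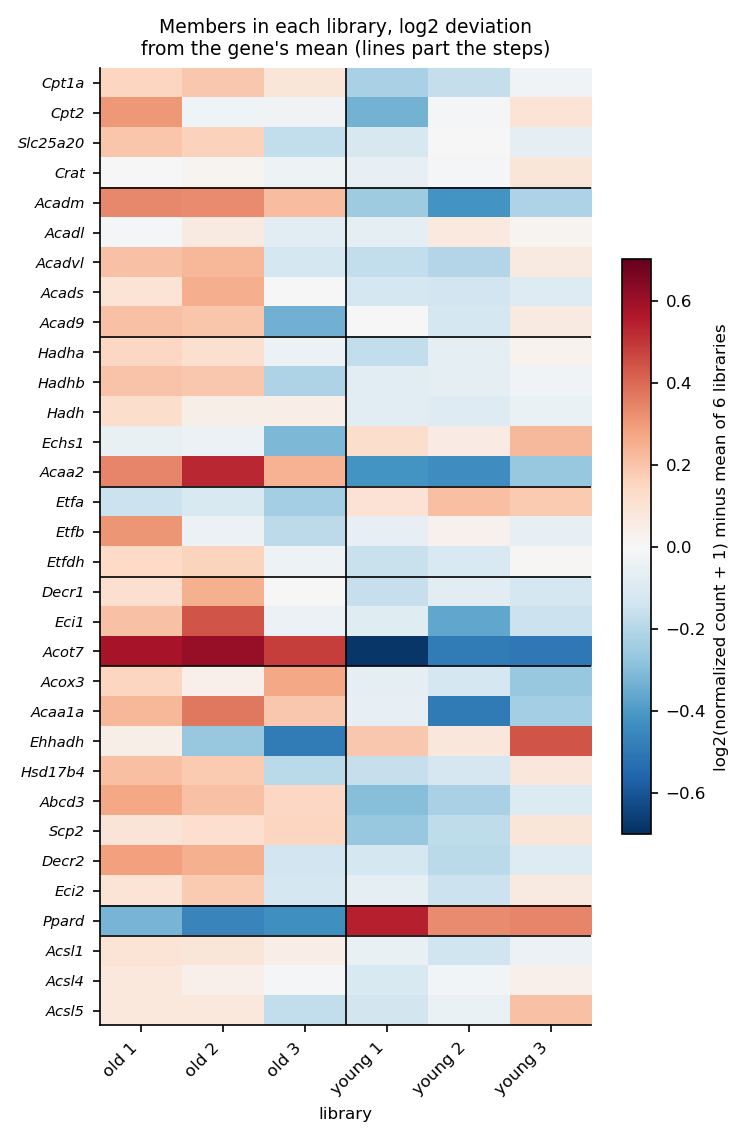
Each member (rows, by step) in each library (columns), coloured by log2(normalized count + 1) minus the gene's mean over 6 libraries. Red marks values above and blue values below the mean; old replicate 3 is paler than the other old libraries in many rows, while Acot7, Acaa2, Acadm and Ppard keep their colour in all 3 libraries of each age.

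Promoter sequences of members that moved in opposite directions were compared for the motif AGGTCA, the core that PPARs and related nuclear receptors bind. RefSeq windows on GRCm38.p6, from 250 bases before to 50 after the start of transcription, were found for 27 of the 32 members. The full PPAR direct repeat, a pair of AGGTCA copies with 1 base between them, was searched on both strands. It matched 0 of these 27, against 0.0396% of 32851 promoters. An exact match is so rare, 13 of all promoters, that 0 of 27 does not show that these members lack PPAR elements. Members were counted by gene and all promoters by window. The shorter AGGTCA, which is part of the repeat, matched 5 of 27 (18.5%), against 16.3% of all promoters. The 5 were Acadm and Cpt1a, higher in old, Echs1, lower in old, and Acadvl and Scp2, which did not pass. The windows of the 3 that passed are Acadm at chr3:153944594-153944893 (minus strand), Cpt1a at chr19:3323051-3323350 (plus strand) and Echs1 at chr7:140116372-140116671 (minus strand), shown with AGGTCA or its reverse complement TGACCT in capitals.
Acadm: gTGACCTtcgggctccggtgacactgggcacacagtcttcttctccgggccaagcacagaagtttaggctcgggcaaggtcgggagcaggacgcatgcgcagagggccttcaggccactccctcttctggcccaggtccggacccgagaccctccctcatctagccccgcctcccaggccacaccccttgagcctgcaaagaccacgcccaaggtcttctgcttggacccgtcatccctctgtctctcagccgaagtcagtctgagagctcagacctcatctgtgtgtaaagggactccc
Cpt1a: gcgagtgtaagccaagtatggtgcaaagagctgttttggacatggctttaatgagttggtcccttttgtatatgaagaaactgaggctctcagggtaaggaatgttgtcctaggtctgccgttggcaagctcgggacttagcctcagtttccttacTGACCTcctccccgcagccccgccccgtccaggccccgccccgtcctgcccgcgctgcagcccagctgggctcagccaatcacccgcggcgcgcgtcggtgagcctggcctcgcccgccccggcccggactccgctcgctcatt
Echs1: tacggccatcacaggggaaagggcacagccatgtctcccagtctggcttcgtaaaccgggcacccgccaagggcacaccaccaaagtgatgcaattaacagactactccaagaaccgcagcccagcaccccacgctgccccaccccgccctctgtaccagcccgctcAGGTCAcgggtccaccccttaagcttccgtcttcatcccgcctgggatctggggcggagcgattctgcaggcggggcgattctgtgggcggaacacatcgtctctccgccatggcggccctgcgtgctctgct
Each window holds 1 match, at position 2 of the window in Acadm, 157 in Cpt1a and 168 in Echs1. The Echs1 call, the only one lower in old among the 3, was lost in 13 of 18 alternatives. The estrogen-related receptor element TNAAGGTCA, which overlaps AGGTCA, matched 0 of 27 members (1.28% of all promoters), and the palindromic nuclear respiratory factor 1 element matched 1, Etfdh (3.7%, against 0.971%). A match of letters is a description and not a binding site.

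Hadha and Hadhb encode the alpha and beta subunits of the trifunctional protein, which carries out the last 3 steps for long chains at the inner membrane. The genes lie head to head on chromosome 5, with 85 bases between them, and their promoter windows share 228 bases. The Hadha window at chr5:30154931-30155230 (minus strand) is shown as an example of a shared promoter, with the bases that also belong to the Hadhb window in capitals.
Hadha: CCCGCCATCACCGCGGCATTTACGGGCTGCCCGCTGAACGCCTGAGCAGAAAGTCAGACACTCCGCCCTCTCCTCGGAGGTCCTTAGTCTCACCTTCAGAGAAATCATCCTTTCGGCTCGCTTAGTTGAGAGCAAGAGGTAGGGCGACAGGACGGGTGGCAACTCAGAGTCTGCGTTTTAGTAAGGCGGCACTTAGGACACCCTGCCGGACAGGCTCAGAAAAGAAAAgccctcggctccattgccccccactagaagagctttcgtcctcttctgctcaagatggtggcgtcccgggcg
Neither gene passed, with log2 differences of 0.14 ± 0.08 for Hadha (interval -0.03 to 0.32, adjusted p = 0.186) and 0.11 ± 0.12 for Hadhb (interval -0.15 to 0.38, 0.477; both ± SE). Hadha had 1338, 1310 and 1175 normalized counts in old and 1074, 1155 and 1229 in young replicates 1 to 3. Hadhb had 336, 333 and 251 in old and 277, 278 and 287 in young, so old replicate 3 alone lay below the young libraries. Per kilobase of transcript, Hadha was at 287 and Hadhb at 137 normalized counts in young libraries. Of the 50-base stretches of Hadhb transcripts, 19.7% also occur in transcripts of other annotated genes, so its level is uncertain. Without both libraries numbered 3, Hadha was higher in old by 0.25 (adjusted p = 0.00113) and Hadhb by 0.27 (0.014).

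Of the 3 acyl-CoA synthetases, which attach coenzyme A to long-chain fatty acids, 0 passed the test. Acsl5 and Acsl4, which prefers arachidonic acid, had the highest levels of all members per kilobase of transcript, 613 and 512 normalized counts per kilobase in young libraries. Acsl4 was at 2731 to 2898 normalized counts in old and 2564 to 2823 in young libraries, and its 95% interval for the log2 difference ran from -0.09 to 0.21. Acsl5 lay at 2279 to 2705.5 and 2349 to 2964 (interval -0.25 to 0.22), and the 2 ages overlapped for both genes. Acsl1, the isoform tied to inflammatory macrophages, was at 1162 to 1201 in old and 1021 to 1091 in young, without overlap, with a log2 difference of 0.15 ± 0.06 (SE) and an adjusted p of 0.0878. Without both libraries numbered 3, Acsl1 (0.18, adjusted p = 0.0117) and Acsl5 (0.16, 0.0118) were higher in old, and Acsl1 also passed under median centring (0.21).

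In the carnitine shuttle, Cpt1a was the member that changed. It encodes the liver isoform of carnitine palmitoyltransferase 1, the malonyl-CoA-sensitive entry step, and lies on chromosome 19 (3322334 to 3385733). Its normalized counts were 1951, 2005 and 1863 in old replicates 1 to 3 and 1504, 1565 and 1728 in young replicates 1 to 3. Every old library was above every young one, by 0.28 ± 0.07 on the log2 scale (SE; adjusted p = 0.0145). The call was lost in 6 of 18 alternatives, with adjusted p from 6.25e-06 to 0.0899, among them without old replicate 1 or 2 and without young replicate 1 or 2. Cpt2, which reverses the transfer inside the matrix, was at 140 to 177 in old and 114 to 153 in young (log2 difference 0.17, interval -0.16 to 0.50). The carrier Slc25a20 was at 206 to 265 and 214 to 231 (0.12, interval -0.13 to 0.38), and Crat, which handles short acyl chains, at 972 to 1011 and 957 to 1057 (-0.01, interval -0.16 to 0.14). The ages overlapped for all 3. With 1 library left out, the difference ran from 0.04 (without young replicate 1) to 0.25 (without young replicate 3) for Cpt2 and from 0.06 to 0.24 for Slc25a20, where old replicates 1 and 3 respectively were left out. Without both libraries numbered 3, Slc25a20 was higher in old by 0.24 (adjusted p = 0.0491) and Cpt2 was at 0.31 (0.0776). The muscle isoform gene Cpt1b, looked up afterwards, had 0 to 1.71 normalized counts per library.

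Among the acyl-CoA dehydrogenases, which open each turn and differ in the chain length they take, the medium-chain enzyme stood alone in passing. Acadm (chromosome 3, 153922357 to 153944632) had 632, 630.0 and 582 normalized counts in old replicates 1 to 3 and 420, 374 and 430.1 in young replicates 1 to 3. Every old library was above every young one, with means of 615 ± 28.5 and 408 ± 30.1 (SD, n = 3 each) and a log2 difference of 0.59 ± 0.08 (SE; adjusted p = 0.000456). The long-chain gene Acadl overlapped between ages, with 527 to 579.5 in old and 530.1 to 581 in young libraries and an interval of -0.18 to 0.15. Acadvl, for very long chains, was at 417 to 533 and 394 to 475 (0.21, interval -0.05 to 0.47), and the short-chain gene Acads at 351 to 420 and 321 to 330.4 (0.23, interval 0.03 to 0.43, adjusted p = 0.0675). Acads libraries did not overlap between ages, whereas those of Acadvl did. Acad9, known mainly as an assembly factor of respiratory complex I, was at 193 in old replicate 3 and 279.5 to 282 in the other old libraries, against 225 to 255 in young. Without both libraries numbered 3, Acadvl (0.41, adjusted p = 9.86e-05), Acads (0.30, 0.00503) and Acad9 (0.26, 0.0282) were also higher in old, and Acadl was at 0.03 (0.769). Of the 50-base stretches of Acadvl, 26.9% recur in Dvl2, whose exons overlap it on the opposite strand. For Acad9, 14.6% recur in other genes, among them Gm43079, which overlaps it on the same strand. The levels of both are uncertain to that extent.

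Of the hydratase, hydroxyacyl-CoA dehydrogenase and thiolase genes, Acaa2 was higher in old, Echs1 lower, and Hadh, Hadha and Hadhb did not pass. Acaa2, the matrix thiolase that releases acetyl-CoA (chromosome 18, 74779197 to 74806208), had 572, 650.5 and 535 normalized counts in old and 338, 334 and 376 in young replicates 1 to 3. The lowest old library was above the highest young one, and the log2 difference was 0.74 ± 0.09 (SE; adjusted p = 0.000256). Echs1, the short-chain enoyl-CoA hydratase (chromosome 7, 140105710 to 140116476), went the other way, with 572, 576 and 476 in old and 646, 617 and 694 in young. Its log2 difference was -0.27 ± 0.09 (SE; adjusted p = 0.0472), close to the threshold, and the call was lost in 13 of 18 alternatives, among them each of the 6 with 1 library left out, with adjusted p from 0.0403 to 0.15. Hadh, the matrix hydroxyacyl-CoA dehydrogenase for shorter chains, was at 341 to 362 in old and 311 to 321 in young, without overlap, with a log2 difference of 0.14 and an adjusted p of 0.176.

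The electron transfer flavoprotein takes electrons from the acyl-CoA dehydrogenases and hands them to its membrane-bound oxidoreductase, encoded by Etfdh. Its alpha subunit gene Etfa (chromosome 9, 55454508 to 55512243) fell, with 341, 351 and 320.1 normalized counts in old and 405, 437 and 428 in young replicates 1 to 3. No old library reached a young one, and the log2 difference was -0.33 ± 0.08 (SE; adjusted p = 0.00935). The call was lost without young replicate 2 and with the replicate number as a block (adjusted p up to 0.0588). The partner subunit Etfb was at 63.5 to 89.6 in old and 69.3 to 73.7 in young, with a wide interval of -0.31 to 0.42. Etfb exons are overlapped by Gm45233 on the same strand, and 44.8% of its 50-base stretches recur in other genes. Etfdh was at 373 to 427 in old and 344 to 386 in young (0.17, interval -0.03 to 0.37), and without both libraries numbered 3 it was higher by 0.28 (adjusted p = 0.00579).

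Of the auxiliary enzymes, Acot7 had the clearest difference of all members. It encodes an acyl-CoA thioesterase that removes coenzyme A from long-chain acyl-CoA and so works against activation; it is found in the cytosol, with isoforms directed to mitochondria, and is no enzyme of the spiral itself. Acot7 (chromosome 4, 152178134 to 152271855) had 499.5, 512 and 469 normalized counts in old replicates 1 to 3 and 208, 238 and 237 in young replicates 1 to 3. Means were 493 ± 22.3 and 228 ± 16.7 (SD, n = 3 each), and the log2 difference was 1.11 ± 0.09 (SE; adjusted p = 1.10e-05). Over the alternatives it ran from 1.04 to 1.18. The auxiliary enzymes for unsaturated chains were less clear. The dienoyl-CoA reductase gene Decr1 was at 248 to 293 in old and 220 to 233 in young (0.25, adjusted p = 0.0668), and the enoyl-CoA isomerase gene Eci1 at 107 to 149.6 and 85.1 to 104 (0.40, adjusted p = 0.0666). Neither overlapped between ages, and without both libraries numbered 3 both were higher in old, with adjusted p of 0.0129 and 0.00415.

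**Figure D3:**
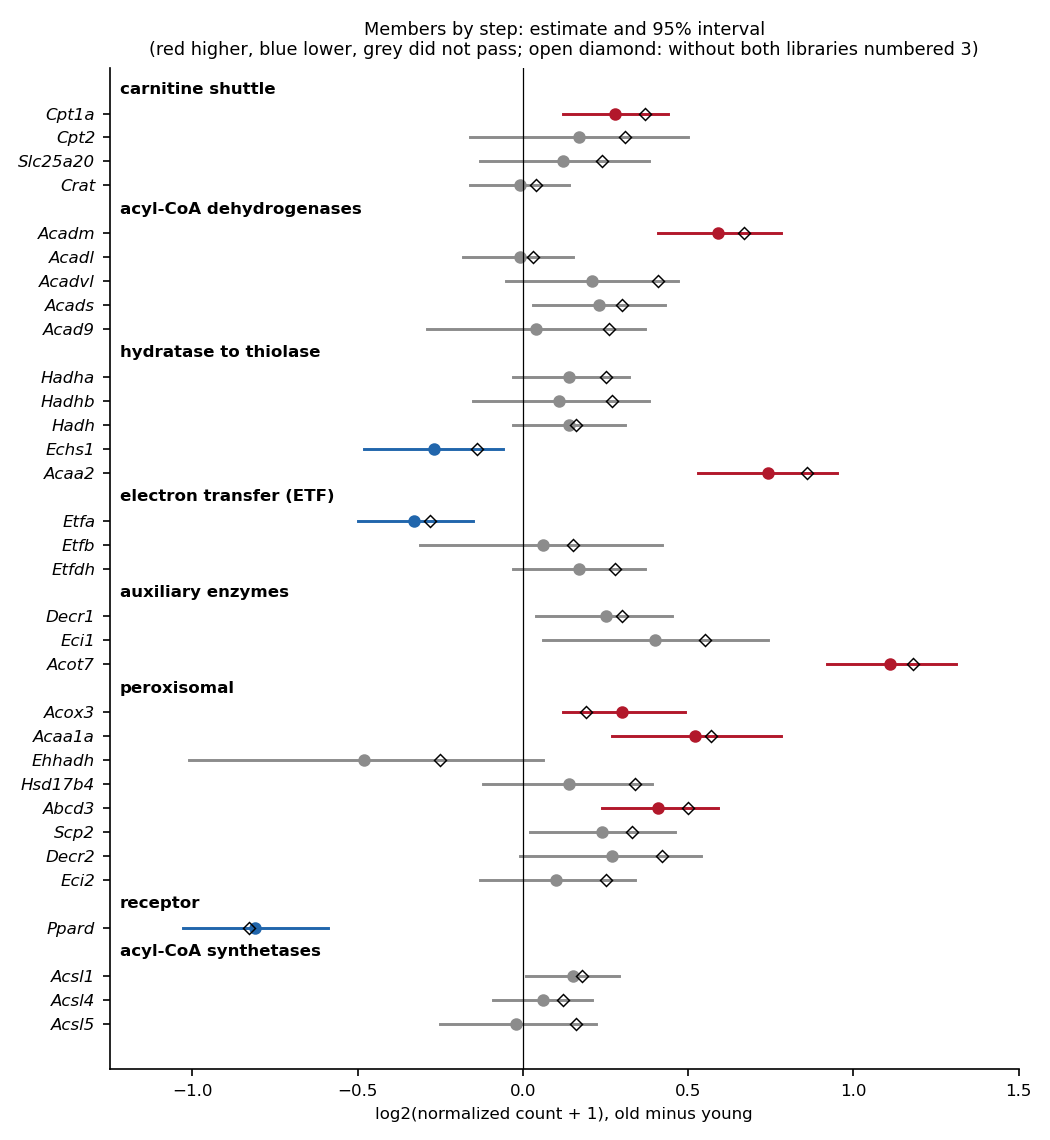
Log2 difference between old and young for every member, grouped by step, with 95% intervals from all 6 libraries (circles and lines) and the estimate without both libraries numbered 3 (open diamonds). Red marks members higher in old, blue lower and grey those that did not pass. Acot7 at 1.11 and Ppard at -0.81 mark the ends, and most diamonds lie to the right of their circles.

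In peroxisomes 3 of 8 members rose (37.5%, against 17.9% of all genes) and 0 fell (against 17.6%), with a median log2 difference of 0.25. Abcd3 encodes the membrane transporter that brings acyl-CoA into peroxisomes (chromosome 3, 121758774 to 121815302). It had 716, 685 and 657 normalized counts in old and 483, 506 and 556 in young replicates 1 to 3, a log2 difference of 0.41 ± 0.08 (SE; adjusted p = 0.00291). Acaa1a, the peroxisomal thiolase gene (chromosome 9, 119339676 to 119350299), had 687, 756 and 667 in old and 563, 416 and 496 in young, 0.52 ± 0.11 (SE; adjusted p = 0.00537). Acox3, the oxidase that starts the breakdown of branched chains (chromosome 5, 35583040 to 35615352), had 1074, 992 and 1166 in old and 924, 887 and 805 in young, 0.30 ± 0.08 (SE; adjusted p = 0.0194). The old libraries lay above the young ones for all 3 genes. Old replicate 3 was the highest library for Acox3, whereas it was the lowest old library for Abcd3 and Acaa1a. The Acox3 call was lost in 5 of 18 alternatives (adjusted p up to 0.091), among them those that leave out old replicate 1 or either of young replicates 2 and 3. Acaa1a shares 17.1% of its 50-base stretches with other genes, Acaa1b and Myd88 among them, and its level is uncertain to that extent.

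The other peroxisomal members did not pass. Ehhadh, the bifunctional enzyme induced by PPAR-alpha in liver, had low counts, with 20.3 to 29.9 normalized counts in old and 30.7 to 39.7 in young libraries. It was the lowest member per kilobase of transcript (11.6 in young) and had an interval of -1.01 to 0.06. The parallel multifunctional enzyme gene Hsd17b4 was at 927 to 1221 in old and 943 to 1114 in young, or 376 normalized counts per kilobase in young. Scp2, which encodes a thiolase for branched chains and a sterol carrier, was at 428 to 447 and 334 to 427 (0.24, adjusted p = 0.0898), and 29.7% of its 50-base stretches recur in other genes, chiefly a pseudogene. Decr2 was at 203 to 272 and 196 to 210 (0.27, interval -0.01 to 0.54), and the isomerase gene Eci2 at 246 to 304 and 241 to 280 (0.10, interval -0.13 to 0.34). For Eci2, 11.1% of its 50-base stretches recur in other genes. Without both libraries numbered 3, 7 of the 8 peroxisomal members were higher in old, in a fit that called 30.3% of all genes higher, with Ehhadh at -0.25 (adjusted p = 0.454) as the exception.

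Mitochondrial members, Acot7 included, had 4 higher (20%, against 17.9% of all genes) and 2 lower (10%, against 17.6%) of 20 and a median of 0.16. Peroxisomal members had the higher median, with a range from -0.48 to 0.52, against -0.33 to 1.11 for the mitochondrial members. The difference between compartments was not tested.

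The receptor measured here fell. Ppard encodes PPAR-delta, a fatty acid sensor that is broadly expressed and known to induce oxidation genes (chromosome 17, 28232700 to 28301474). It had 168, 153 and 156 normalized counts in old and 308, 266 and 268 in young replicates 1 to 3. Every young library was well above every old one, with means of 159 ± 8.18 and 281 ± 23.7 (SD, n = 3 each) and a log2 difference of -0.81 ± 0.10 (SE; adjusted p = 0.000201). Over the alternatives the difference ran from -0.85 to -0.74. Of the other PPAR partners and target genes, 5 of 15 tested were higher and 3 lower in old, with a median of 0.01. The shares of all genes were 17.9% higher and 17.6% lower. Pparg, the receptor that drives lipid storage, was at 141 to 152 in old and 45.6 to 56.3 in young, a log2 difference of 1.51 (adjusted p = 2.5e-05). The fatty acid carriers Fabp5 (1.14) and Fabp4 (0.95) and the lipid droplet coat gene Plin2 (0.89) were the other named genes that rose. Ppargc1a, the coactivator best known for inducing mitochondrial genes, had 0 to 2.56 normalized counts per library, and Ppargc1b was at 62.1 to 78.7 in old and 62.3 to 90.5 in young (both looked up afterwards).

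Genes that act beside the members gave the following counts. Among 28 tested further oxidation genes, 7 were higher and 2 lower in old, with a median of 0.23. Across all genes, 17.9% were higher and 17.6% lower. The peroxisomal transporter gene Abcd2 was 2.72-fold higher in young, with 96.8 to 115 in old and 262 to 313 in young libraries, the opposite direction to Abcd3. The fatty acid transporter gene Slc27a1 was lower in old (-0.57). The thioesterase gene Acot1 was higher (2.03) at a low level of 16.2 to 23.9 against 3.02 to 5.26. Acot1 reached the mean of 10 needed for testing only through the old libraries.

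Of 13 tested genes of fatty acid synthesis and malonyl-CoA control, 2 were higher and 3 lower, with a median of 0.09. Of all genes, 17.9% were higher and 17.6% lower. Acaca, which makes the malonyl-CoA that inhibits Cpt1a, was at 489 to 531 in old and 728 to 777 in young (-0.55, adjusted p = 0.000251). Fatty acid synthase, Fasn, was at 1516 to 1593 and 2705 to 2967 (-0.87, adjusted p = 8.26e-06), and the desaturase gene Scd2 was lower as well (-0.44). The desaturase gene Scd1, looked up afterwards, passed in the opposite direction, higher in old. Acss2, the cytosolic acetyl-CoA synthetase, was higher in old (0.88).

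Lipolysis and lipid droplet genes had 4 higher and 0 lower of 9 tested, against 17.9% and 17.6% of all genes, with a median of 0.17. Lipa, the lysosomal acid lipase that frees fatty acids from cholesteryl esters and triglycerides, was at 18238 to 22129 in old and 8617 to 10402 in young (1.16). The droplet proteins Plin3 (0.78) and Hilpda (0.83) were higher in old. Mgll, the monoglyceride lipase gene, was at 23.9 to 27.4 against 1.69 to 3.02 normalized counts (2.96, adjusted p = 0.000532). It reached the mean of 10 needed for testing only through the old libraries. Its call, and its place among the 4, carry that selection.

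Further lists covered the organelles and the pathways that adjoin oxidation. Their counts stand beside 17.9% of all genes higher and 17.6% lower. Peroxisome biogenesis had 4 higher and 1 lower of 20, with a median of 0.13; Pex7 (0.48), Pex19 (0.48) and Pex2 (0.44), which import or insert peroxisomal proteins, were higher, and the import receptor gene Pex5 was lower (-0.28). The citric acid cycle, which burns the acetyl-CoA that oxidation yields, had 2 higher and 2 lower of 18 and a median of 0.02. Sdhc (0.41) and Idh3b (0.26) were higher and Ogdh (-0.24) and Mdh2 (-0.21) lower in old. Oxidation of branched-chain amino acids and odd-chain units, which uses the same flavoprotein, had 5 higher and 0 lower of 18 with a median of 0.18, led by Mcee (0.53), Acadsb (0.36), Aldh6a1 (0.57) and Hibadh (0.24). Genes of coenzyme A synthesis and supply had 0 higher and 2 lower of 12 (median -0.03), namely Ppcdc (-0.97) and Pank1 (-0.83). These counts moved with single libraries. The lipolysis list had 4 higher and 0 lower in each of the 6 fits with 1 library left out. The 4 of the main fit include Mgll, which entered the test only through the old libraries. Without old replicate 3, the further oxidation genes had 11 higher and 2 lower, fatty acid synthesis 6 and 3, the PPAR list 5 and 6, and the citric acid cycle 5 and 1. Without old replicate 1, the further oxidation genes had 1 higher and 2 lower and the branched-chain list 1 and 0, and without young replicate 2 they had 2 and 2, and 3 and 0. Of all genes, 23.6% were higher and 24.6% lower without old replicate 3, and 12.4% and 12.6% without young replicate 2. Without old replicate 1, 25.6% of all genes passed in either direction. Lists were compared by counts and medians, and differences between them were not tested.

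**Figure D4:**
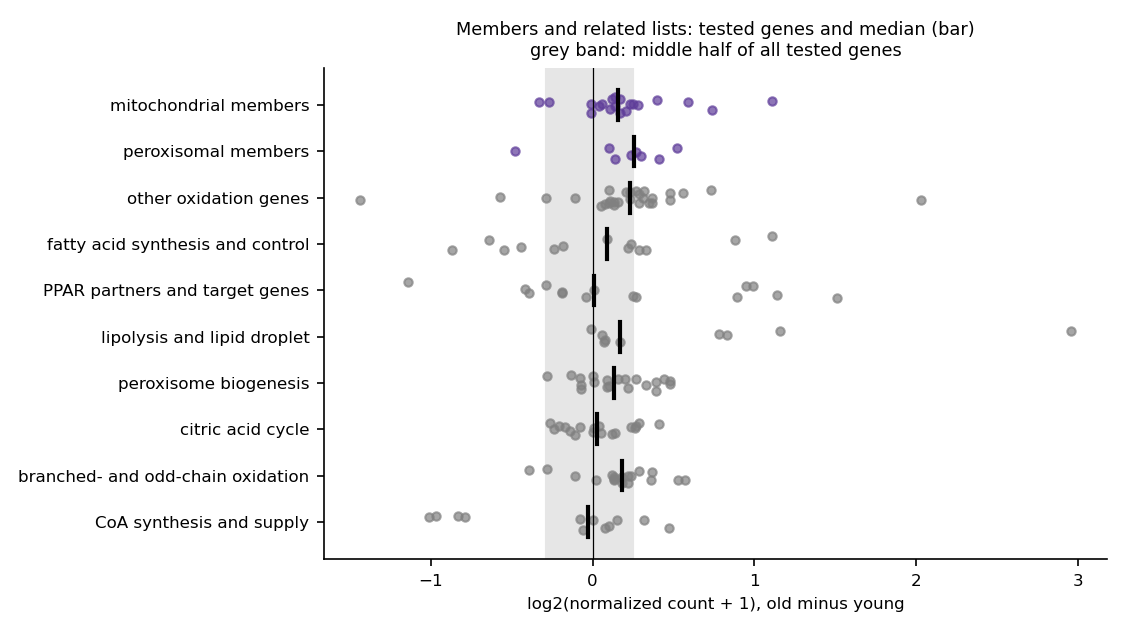
Log2 differences between old and young (horizontal axis) of the mitochondrial and peroxisomal members (purple) and of 8 related lists (grey), each point a tested gene and each bar the list's median; the grey band is the interquartile range of all tested genes. Medians lie between -0.03 for coenzyme A synthesis and 0.25 for the peroxisomal members, all inside the band.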

How the data were processed

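RNA was prepared with the TruSeq protocol, per the labels' protocols. The authors deposited 1 table of normalized signal values per gene. DESeq2 and mm10 are named in the submitters' processing notes. For the aligner, counter, annotation release and strand setting, no name is given in the sources used here. In each library 100% of values were whole multiples of 1 step (tolerance 0.01 reads), as counts divided by a size factor are. Old was compared with young by limma 3.58.1 (R 4.3.3) with a trend on log2(normalized count + 1) for 11795 genes with a mean of at least 10, with Benjamini-Hochberg adjustment over all of them and a threshold of 0.05; differences on this scale understate changes of low genes, and folds are ratios of mean normalized counts. The test was tested on simulated data. The members and lists were chosen with earlier results of these data known. Named were all members and, from each other list, up to 4 passing genes with the smallest adjusted p, or the 2 with the highest mean where none passed; others are marked as looked up. One gene that this rule names is not reported here. Names and positions come from GENCODE M21 (GRCm38, which mm10 names), counted from 1, and levels per kilobase use the longest APPRIS principal transcript. Of the members, 10 have exons overlapped by a gene on the opposite strand, Echs1, Acox3 and Acaa1a among those that passed, and counting by strand is not stated. Alternatives were 16 planned and 2 added after seeing the data, edgeR 4.0.16 and DESeq2 1.42.0 on recovered reads of 5 libraries.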

Additional observations from a re-analysis of the deposited data

How the results depend on the processing

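Of 11795 genes, 2107 were higher and 2076 lower in old; with the replicate number as a block it was 1281 and 1362, without both libraries numbered 3 it was 3573 and 3387, and with 1 library left out 1444 to 2772 and 1486 to 2888. Same-numbered old and young libraries deviated in opposite directions (correlations -0.382, -0.361 and -0.676), so the numbers were not taken as pairs; under the replicate block 5 members were higher and 1 lower, and 0 mitochondrial members were lower. With 1 library left out, 5 to 16 members were higher in old and 1 to 2 lower. Members higher in old numbered 12 under quantile normalization, 14 under median centring and 22 without both libraries numbered 3 (median 0.26). Among all genes, those higher in old numbered 2463, 2724 and 3573 in these 3 settings, against 2107 in the main fit. Among mitochondrial members the higher ones numbered 8, 9 and 13 in the same 3 settings (median 0.27 in the last) and 3 to 11 with 1 library left out. Mitochondrial members lower in old numbered 1 without the filter, under median centring, without the trend, without both libraries numbered 3 and in edgeR and DESeq2, and 0 to 1 with 1 library left out. Peroxisomal members higher in old numbered 7 without both libraries numbered 3 and 2 to 5 with 1 library left out. The cause of these shifts was not tested. edgeR on 5 libraries called 8 members (28.2% of all genes) and DESeq2 9 (24.6%); the planned count tests on 6 libraries were not run. Young replicate 1 was left out of them because its step, 1.01, is close to 1, although its values were whole multiples of that step too.

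Differences near 0 changed sign. Crat was 0.04 under median centring, 0.04 without both libraries numbered 3 and -0.04 to 0.03 with 1 library left out. Acadl was 0.01 under quantile normalization, 0.04 under median centring, 0.03 without both libraries numbered 3 and -0.05 to 0.02 with 1 left out. Acsl5 was 0.04 under median centring, 0.16 without both libraries numbered 3 (adjusted p = 0.0118) and -0.09 to 0.08 with 1 left out. Acsl4 was -0.03 under quantile normalization. Acad9 ran from -0.05 to 0.22 and Etfb from -0.08 to 0.16 with 1 library left out. Members that did not pass under any alternative were 7, namely Cpt2, Crat, Acadl, Hadh, Etfb, Ehhadh and Acsl4. Ehhadh, at 20.3 to 39.7 normalized counts per library, and Etfb, at 63.5 to 89.6, had the lowest counts of the members.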
